A study of Mus musculus with 6 samples.

Results

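Slc22a2, Slc22a3 and Airn, 3 of the 31055 features in the count matrix, lie in an imprinted gene cluster of mouse chromosome 17. They were selected by symbol, after earlier results of these data had shown where they were detected, so their levels are given as descriptions and were not tested. The libraries were made from 6 female mice on a 129 background, 16 weeks old, from whose aortic root and ascending aorta single cells were prepared. By the labels, 4 mice were controls with the genotype Tgfbr1+/+, of which 2 also carried Wnt2CRE and the EGFP-L10a reporter that marks cells of the cardiac neural crest lineage. The other 2 mice were Tgfbr1M318R/+, a model of Loeys-Dietz syndrome (LDS). None of the mice is labelled as having received a drug, and all aortas were perfused with saline and digested with enzymes before live nucleated cells were sorted. The number at the end of each cell barcode separates 6 libraries, but the files used here do not tie a number to a mouse. No comparison of genotypes was therefore made. Values are given for each library, as a median over 6 libraries or, for levels of subclusters, single clusters, list genes and cells chosen by a count, and for shares of cells, as 1 sum over all libraries.

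Slc22a2 and Slc22a3 encode OCT2 and OCT3, polyspecific transporters that carry organic cations such as serotonin, histamine, dopamine and norepinephrine across the plasma membrane. OCT3 is the low-affinity uptake route for monoamines outside neurons. Airn is a long noncoding RNA that is transcribed from the paternal chromosome, starts inside an intron of Igf2r and runs antisense to it. It silences Igf2r in cis, and in extraembryonic tissues it also silences Slc22a2 and Slc22a3. The counts do not separate the parental alleles.

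In the mm10 annotation (GENCODE M21), Slc22a3 (ENSMUSG00000023828) occupied chr17:12418960-12507704 on the minus strand and Slc22a2 (ENSMUSG00000040966) chr17:12584132-12628488 on the plus strand. Their starts were 76.4 kb apart with no protein-coding gene between them, and each had up to 11 exons. Airn (ENSMUSG00000078247) occupied chr17:12741311-12860136 on the plus strand, with spliced transcripts of 2 or 3 exons. Its start lay in intron 2 of Igf2r, and 28.4 kb of Airn ran opposite Igf2r. The end of Slc22a3 overlapped the end of Plg on the opposite strand by 426 bases, and Airn overlapped Mas1 by 19.1 kb. Plg had 1 unique molecular identifier (UMI, marking 1 captured transcript) and Mas1 had 6 in all cells. Among annotated transcripts, Slc22a3 shared 8.82% of its 25-base words with Plg on the opposite strand. All of these lay within its last 500 bases, the end that a 3′ library reads. Airn shared none with Igf2r or Mas1. With other genes on either strand, Slc22a2 shared 60 words and Airn 72 within their last 500 bases.

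The promoters of the 3 genes are shown because the genes share a locus but not a pattern across cell types. Each runs from 250 bases before to 50 bases after the start that RefSeq gives (GRCm38.p6), 5′ to 3′ on the strand of the gene, with every match to the E-box CANNTG in capitals. The windows are chr17:12583939-12584238 (plus) for Slc22a2, chr17:12507655-12507954 (minus) for Slc22a3 and chr17:12741061-12741360 (plus) for Airn.
Slc22a2: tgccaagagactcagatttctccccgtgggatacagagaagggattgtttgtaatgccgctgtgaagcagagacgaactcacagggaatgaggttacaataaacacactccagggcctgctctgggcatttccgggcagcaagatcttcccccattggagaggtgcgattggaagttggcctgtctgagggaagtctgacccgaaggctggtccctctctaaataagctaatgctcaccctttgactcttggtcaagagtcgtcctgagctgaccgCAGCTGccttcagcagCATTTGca
Slc22a3: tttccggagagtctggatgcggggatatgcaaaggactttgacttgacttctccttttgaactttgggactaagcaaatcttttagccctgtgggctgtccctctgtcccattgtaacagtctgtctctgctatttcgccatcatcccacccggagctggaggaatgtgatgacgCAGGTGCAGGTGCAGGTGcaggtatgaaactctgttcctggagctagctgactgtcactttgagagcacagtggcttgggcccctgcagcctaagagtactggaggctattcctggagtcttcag
Airn: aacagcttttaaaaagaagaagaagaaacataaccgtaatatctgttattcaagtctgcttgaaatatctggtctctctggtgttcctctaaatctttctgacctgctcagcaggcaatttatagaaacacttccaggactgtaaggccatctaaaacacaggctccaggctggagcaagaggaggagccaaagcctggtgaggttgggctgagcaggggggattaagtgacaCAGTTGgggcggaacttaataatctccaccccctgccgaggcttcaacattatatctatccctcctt
The Slc22a3 window held 3 copies of CAGGTG in an unbroken row, starting 75, 69 and 63 bases before the start. On either strand, 20.2% of 32851 RefSeq promoter windows held CAGGTG, which is 1 form of CANNTG, and 0.365% held 3 or more. CANNTG in any form was in 72.3% of the windows. The Slc22a2 window held CANNTG at 26 and 42 bases after the start, and the Airn window at 17 bases before it. For Slc22a2 the RefSeq start lay downstream of the GENCODE start, chr17:12584132, so its window and matches hold for the RefSeq start only. For Slc22a3 and Airn the starts were the same. TATAAA, found on either strand in 13.6% of the windows, matched only the Airn window among the 3, on the opposite strand. None of the 3 windows held a CArG box, the motif bound by serum response factor, which 1.63% of all windows held. The G and C content was 52.7% for Slc22a2, 52% for Slc22a3 and 45.7% for Airn, beside a median of 52.7%. These matches describe letters and not bound sites.

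Of 30716 barcodes, 24972 passed the filter, which asked for 1000 to 5000 genes and 1500 to 25000 UMIs (limits excluded) with a mitochondrial share below 20%. They held 18218282 to 38105145 UMIs per library, with a median of 5572 to 9838 per cell. Cells were clustered without the 3 genes and named from markers, which gave 9636 vascular smooth muscle cell (VSMC)-like, 13498 fibroblast-like, 506 endothelial-like and 440 leukocyte-like cells. All 7 VSMC markers (such as Myh11 and Acta2) were found in each VSMC-like cluster. VSMC-like cells were clustered again without the 3 genes, which separated 7292 VSMC1-like cells, with more Tes and Ptprz1, and 1594 VSMC2-like cells, with more Enpep and Notch3. In all, 0.609% of the cells carried a barcode sequence that occurred in more than 1 library. Levels are given as CPM, the UMIs of a gene out of 1000000 UMIs of the same cells, in which a 3′ tag counts a transcript once whatever its length.

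Slc22a2 and Slc22a3 were detected in VSMC-like cells and in an unnamed cluster that carries the VSMC markers, and at far lower levels elsewhere, whereas Airn was detected in VSMC-like, fibroblast-like and endothelial-like cells, at median levels of 24.3, 17.02 and 23.0 CPM. Slc22a2 had 2413 UMIs in 1324 cells, Slc22a3 had 8324 in 4512 cells and Airn had 3601 in 3125 cells. Of these UMIs, 2076, 7334 and 1824 respectively were in VSMC-like cells.

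The level of Slc22a3 in VSMC-like cells was 129, 72.6, 69.8, 58.9, 121 and 101 CPM in libraries 1 to 6. Libraries 1 and 5 were the highest and library 4 the lowest. In fibroblast-like cells Slc22a3 was at 6.63, 0.176, 1.10, 0.968, 7.93 and 1.296 CPM, so that every VSMC-like value lay above every fibroblast-like value. The log2 ratio of VSMC-like over fibroblast-like cells was 4.28, 8.42, 5.95, 5.88, 3.92 and 6.22, with a median of 5.92. That ratio was computed within each library, with 0.5 UMI added to each sum. The fibroblast-like cells held only 224 Slc22a3 UMIs over all libraries. The largest ratio, in library 2, rests on the lowest fibroblast-like level, so the size of the ratio in single libraries is uncertain. Slc22a3 was detected in 41.5% of the VSMC-like cells (exact 95% interval 40.5 to 42.5) and in 1.15% of the fibroblast-like cells (0.976 to 1.34).

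Slc22a2 was at 30.9, 22.9, 23.3, 16.8, 32.4 and 34.6 CPM in VSMC-like cells. Library 4 was again the lowest. In fibroblast-like cells Slc22a2 was at 1.94, 0.117, 0.334, 0.132, 2.30 and 0.589 CPM, which did not overlap the VSMC-like values. The log2 ratio ranged from 3.80 to 7.22 with a median of 5.87. Its fibroblast-like side rests on 65 UMIs over all libraries, and the ratio was again largest in library 2, where that level was lowest. Slc22a2 was detected in 12.03% of the VSMC-like cells (11.4 to 12.7) and 0.319% of the fibroblast-like cells (0.231 to 0.429).

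Airn was at 26.6, 26.3, 20.6, 21.3, 22.2 and 29.4 CPM in VSMC-like cells and at 16.7, 17.3, 15.7, 18.8, 13 and 19.3 CPM in fibroblast-like cells. The values of the cell types did not overlap, although library 3 of the VSMC-like cells lay only slightly above library 6 of the fibroblast-like cells. How many of all genes lack such an overlap is not given, so for each of the 3 genes it is a description only. The log2 ratio of Airn was 0.67, 0.60, 0.39, 0.17, 0.77 and 0.60, with a median of 0.60, which is far below those of both transporters. Airn was detected in 15.9% of the VSMC-like (15.2 to 16.7) and 10.3% of the fibroblast-like cells (9.80 to 10.8). All 3 genes were thus higher in VSMC-like than in fibroblast-like cells in all 6 libraries, a direction shared by 34.2% of 8725 genes that reached 10 CPM in either cell type, while 38.2% were lower in all 6 and 72.3% had either direction. The median log2 ratio of those 8725 genes was -0.03, and 99.8% of them lay below Slc22a2, 99.9% below Slc22a3 and 84.3% below Airn.

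**Figure D1:**
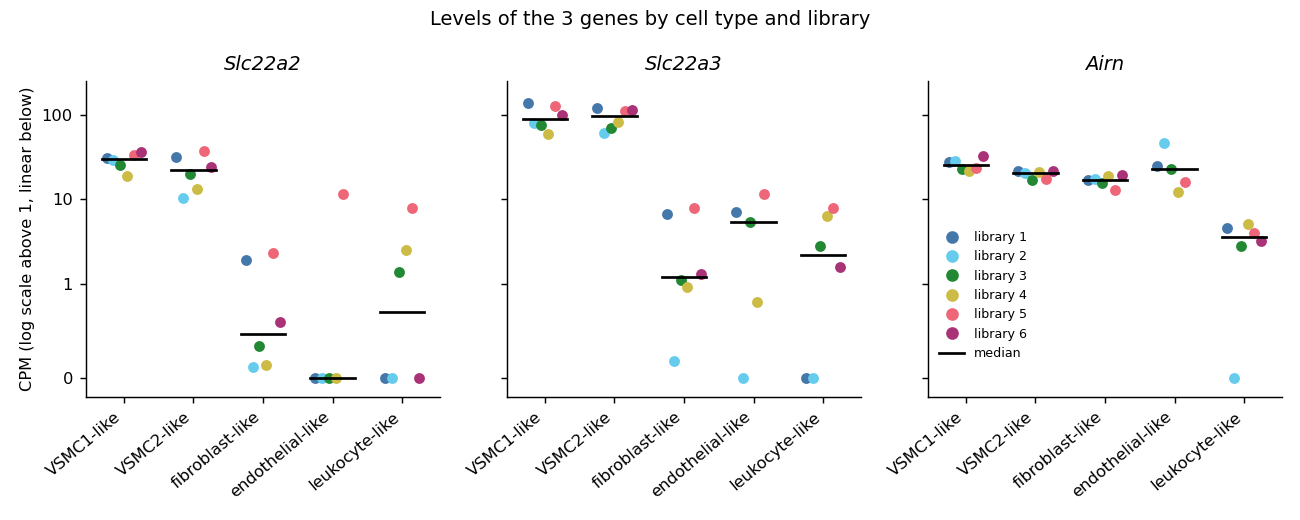
Level of Slc22a2, Slc22a3 and Airn in CPM (log axis above 1, linear below) in 5 cell types, with 1 point per library of at least 20 cells and a bar at the median. The transporters had medians of 22.1 CPM or more in both VSMC subclusters and 5.41 CPM or less elsewhere, while Airn stayed between 17.02 and 25.6 CPM outside leukocyte-like cells.

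The order of the median levels of Slc22a3 was VSMC2-like (95.9 CPM), VSMC1-like (89.8 CPM), endothelial-like (5.41 CPM, over the 5 libraries with at least 20 such cells), leukocyte-like (2.19 CPM) and fibroblast-like cells (1.20 CPM). Neighbours in this order overlapped over libraries except at the step from VSMC1-like cells, at 59.4 CPM or more, to endothelial-like cells, at 11.5 CPM or less. For Slc22a2 the order was VSMC1-like (29.9 CPM), VSMC2-like (22.1 CPM), then leukocyte-like cells (0.695 CPM), fibroblast-like cells (0.462 CPM) and endothelial-like cells (0 CPM). Neighbours overlapped except at the step from VSMC2-like cells, at 10.4 CPM or more, to leukocyte-like cells, at 7.90 CPM or less. The single endothelial-like library with Slc22a2 UMIs was library 5, at 11.5 CPM, which rested on 5 UMIs in 3 of 75 cells. For Airn, VSMC1-like cells (25.6 CPM) were followed by endothelial-like (23.0 CPM), VSMC2-like (20.7 CPM), then fibroblast-like cells (17.02 CPM) and last leukocyte-like cells (3.57 CPM), and only leukocyte-like cells, with at most 5.06 CPM, stood apart from the rest. No UMI of Slc22a2 or Slc22a3 was found in 55 glia-like cells, which allows a share of cells with a UMI of up to 5.45%. Airn had 2 UMIs in the glia-like cells and 5 in 17 cardiomyocyte-like cells.

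The depth of a cell raises the chance to see a gene, so shares were also compared after each cell was thinned to 3000 UMIs. This kept the 9122 VSMC-like, 12288 fibroblast-like and 378 leukocyte-like cells of at least that depth. Free RNA in the droplets gives UMIs in cells that do not express a gene, and thinning does not remove it. Median depths before thinning were 7206, 6125 and 5622 UMIs. At 3000 UMIs, Slc22a3 was detected in 23.0% of VSMC-like, 0.499% of fibroblast-like and 0.771% of leukocyte-like cells. The shares for Slc22a2 were 6.02%, 0.132% and 0.328%. Over all libraries the fibroblast-like share was below the leukocyte-like share for both transporters, and whether either share reflects expression was not tested. The largest count in a single fibroblast-like cell was 10 UMIs for Slc22a2 and 13 for Slc22a3. Before thinning, 9 leukocyte-like cells held a Slc22a3 UMI and 4 a Slc22a2 UMI. By library the order varied, since in library 1 Slc22a3 was detected in 1.16% of fibroblast-like cells and in none of 29 leukocyte-like cells, and in library 5 in 1.56% and 3.18%. The part of free RNA in these shares was not tested. Airn was detected in 6.81% of VSMC-like, 4.89% of fibroblast-like and 5.59% of endothelial-like cells, against 0.892% of leukocyte-like cells.

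The fibroblast-like level of both transporters moved between libraries together with that of VSMC markers. Libraries 1 and 5 were high for each. Slc22a3 in fibroblast-like cells was 5.13, 0.242, 1.57, 1.65, 6.58 and 1.28% of its VSMC-like level in libraries 1 to 6. Slc22a2 was 6.27, 0.512, 1.43, 0.785, 7.09 and 1.71% of its level, and Myh11, the smooth muscle myosin heavy chain, was 3.69, 0.383, 1.41, 0.729, 6.24 and 0.917%. In the fibroblast-like cells with Slc22a2 or Slc22a3, Myh11 was found 6.87 and 8.03 times as often as independence gives at 3000 UMIs. For Slc22a2 this rests on 9.58 observed and 1.395 expected cells, with 0 to 31.8 over libraries. For Slc22a3 it rests on 43.75 and 5.45 cells, with 2.19 to 18.6 over libraries. Airn with Myh11 had a ratio of 1.32 in fibroblast-like cells, above 1 in all 6 libraries. The cause of these ratios was not tested. Relative to its VSMC-like level, Airn in fibroblast-like cells stood, in percent, at 62.8, 65.8, 76.2, 88.6, 58.6 and 65.8, lowest in library 5. Without libraries 1 and 5, the median log2 ratio of VSMC-like over fibroblast-like cells was 6.36 for Slc22a2, 6.09 for Slc22a3 and 0.50 for Airn. With doublets removed it was 6.41, 6.35 and 0.62.

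Between the VSMC subclusters, only Airn of the 3 genes had the same direction in all 6 libraries, and with library sizes scaled by TMM it had that direction in 5 of 6. It was at 27.5, 28.1, 22.9, 21.5, 23.7 and 32.6 CPM in VSMC1-like and at 21.8, 20.4, 16.95, 21.0, 17.4 and 21.4 CPM in VSMC2-like cells. The lowest VSMC1-like value lay below the highest VSMC2-like value, so the levels overlapped across libraries, while within each library VSMC2-like cells were lower, by 0.03 to 0.61 on the log2 scale with a median of -0.44. Among 7675 genes that reached 10 CPM in VSMC-like cells, 23.3% were lower in every library in VSMC2-like cells, 12.2% were higher, and so 35.6% had a common direction. With TMM scaling, 1350 genes were lower and 1215 higher, against 1791 and 938 without it, the median ratio of Airn was -0.40 and library 4 was at 0.03. With log-normalized counts clustered without integration, the median ratio of Airn was -0.14.

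For Slc22a2 the VSMC2-like over VSMC1-like ratio (log2) had a median of -0.41, with values of 0.04, -1.48, -0.34, -0.48, 0.15 and -0.59. It was lower in 4 libraries and slightly higher in libraries 1 and 5. Slc22a3 had values of -0.17, -0.37, -0.13, 0.44, -0.20 and 0.17, with a median of -0.15, and had no common direction. Its median was 0.02 without libraries 1 and 5 and 0.19 with log-normalized counts clustered without integration. Both transporters were thus present in VSMC1-like and VSMC2-like cells, and at 3000 UMIs per cell Slc22a3 was detected in 24.3% and 22.03% of them. Igf2r, the receptor that clears insulin-like growth factor 2, was higher in VSMC2-like cells in all 6 libraries, with a median log2 ratio of 0.15.

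VSMC-like cells divided at a finer resolution into 13 subclusters, which are named here by their leading genes. The share of all genes with 1 direction in every library is not given for these subclusters, so their directions are descriptions only. The subcluster led by Tceal6, Tes and Npr1, with 2388 cells, held Slc22a2 at 39.8 CPM and Slc22a3 at 129.5 CPM. In all 6 libraries this subcluster was above the other VSMC-like cells for Slc22a2, by a median log2 ratio of 0.76, for Slc22a3, by 0.58, and for Airn, by 0.18. Myh11 was above them as well in all 6, by 0.15, and Igf2r below them in all 6, by a median of -0.30. In the subcluster led by Psd, Tnnt2 and Ednrb, with 1360 cells, Slc22a2 was at 14.98 CPM and Slc22a3 at 68.2 CPM, lower than in the other cells in all 6 libraries, by medians of -0.71 and -0.47, while Airn was higher in 4 libraries and lower in 2.

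Slc22a2 and Slc22a3 were also lower in all 6 libraries in the subcluster led by 1500015O10Rik, Comp and Vcam1, with medians of -1.01 and -1.0. Myh11 moved with them there, lower in all 6 libraries with a median of -0.96, and its part in these differences was not tested. Slc22a3 was lower in each of the 5 libraries with at least 20 cells in the subcluster led by the MHC class II genes Cd74 and H2-Aa, where its level was 45.7 CPM and Myh11 was also lower in those 5, with a median of -0.29. Slc22a2 was lower there in 4 of the 5 libraries, with a median of -1.43 and values from -3.85 to 0.90. Slc22a3 was also lower in all 6 libraries in the subcluster led by Igfbp2 and Ltbp2, with a median of -0.59. In that subcluster Slc22a2 was lower in 5 of 6 libraries (-0.66), while Myh11 was higher in all 6 (0.25). The transporters parted in the subcluster led by Olfr558, Pgam2 and Rasd1, which has high Enpep and Notch3. There Slc22a3 was higher than in the other cells in 5 of 6 libraries and Slc22a2 in 2 of 6, with medians of 0.35 and -0.51.

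Airn was highest, at 33.9 CPM, in the subcluster led by Cxcl2, Il1b and Ccl4, where it was above the other cells in all 6 libraries by a median of 0.51. These 1280 cells were the shallowest of the 13 subclusters, with a median of 4143 UMIs, and had a median mitochondrial share of 6.96% against 4.01% in all VSMC-like cells. The part of depth and mitochondrial RNA in this level was not tested. Slc22a3 was higher there as well in all 6 libraries, by a median of 0.35, and so were Igf2r, by 0.52, and Myh11, by 0.35.

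**Figure D2:**
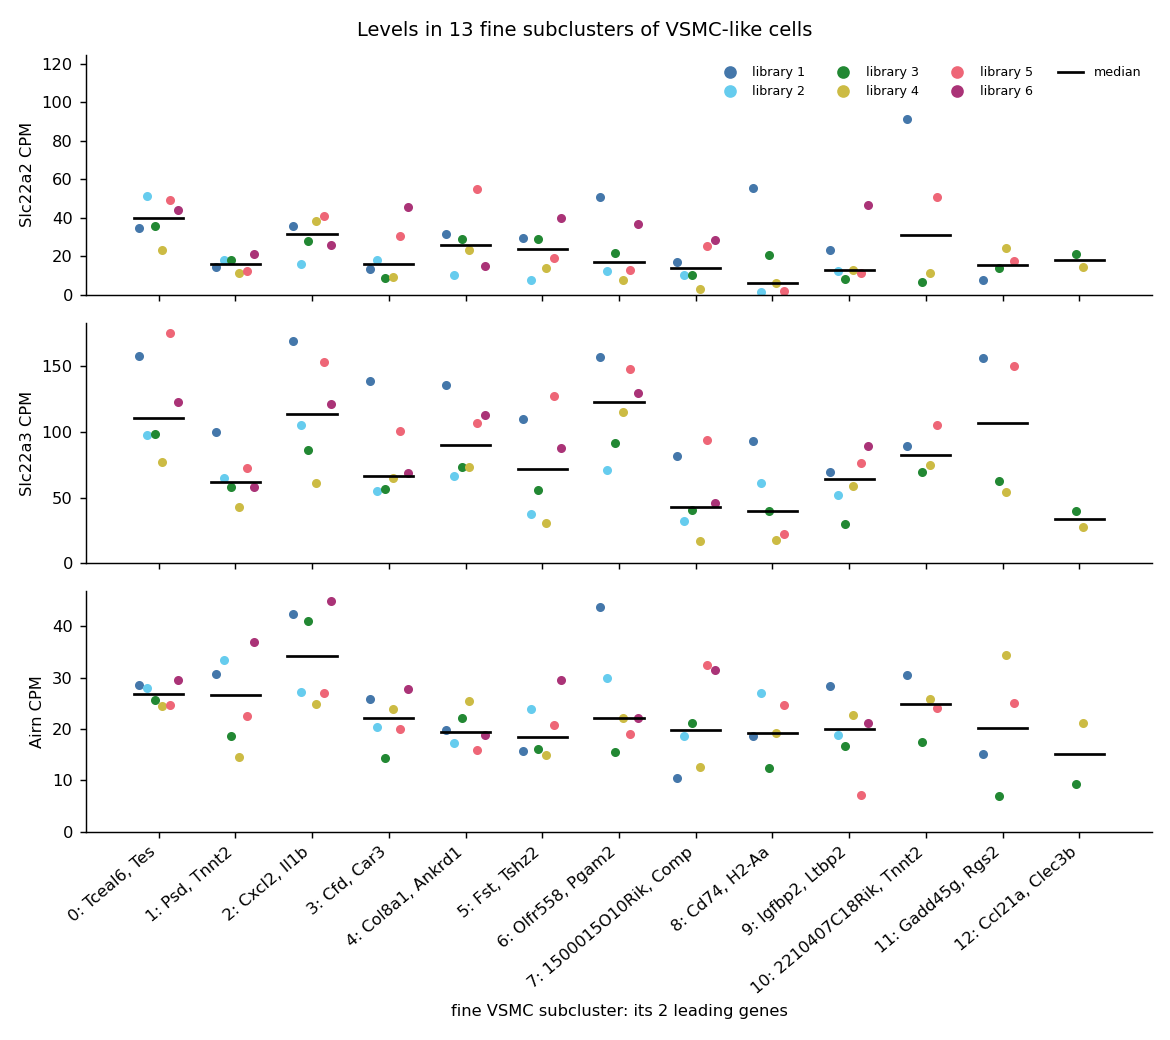
Level of each gene in CPM in 13 fine subclusters of VSMC-like cells, labelled by their leading genes, with 1 point per library of at least 20 cells and a bar at the median. Slc22a2 and Slc22a3 were both high in subcluster 0 and low in subclusters 1, 7 and 8. The medians of Airn spanned a smaller range, from 15.2 CPM in subcluster 12, where 88.1% of the cells were marked as doublets, to 34.2 CPM.

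A cluster of 716 cells led by Rgs5 and Foxf1 passed all 7 VSMC markers but was left without a name because Rgs5 is also on the pericyte list. Among the clusters of all cells it held the highest level of Slc22a2, 45.3 CPM, and the highest level of Slc22a3, 128 CPM. Both were above VSMC-like cells in all 6 libraries, by medians of 0.49 and 0.40, and Airn was above in 3 of 6. For this cluster too, the share of all genes with 1 direction is not given. With these cells counted as VSMC-like, the log2 ratios over fibroblast-like cells were 5.90 for Slc22a2, 5.95 for Slc22a3 and 0.58 for Airn.

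The transcripts of Slc22a2 were concentrated in few cells. Among 9636 VSMC-like cells, 8477 had no Slc22a2 UMI, 816 had 1, 176 had 2, 60 had 3 and 107 had 4 or more, up to 23. Those 107 cells were 1.11% of the VSMC-like cells and held 35.1% of their Slc22a2 UMIs. They came from all 6 libraries, with 23, 11, 8, 5, 39 and 21 cells, and 86 were VSMC1-like and 16 VSMC2-like. Doublet marking took in 3 of them, or 2.80%, beside 2.49% of the other VSMC-like cells. In libraries 2 and 5 the marked cells were those with the highest 5% of doublet scores, so these shares depend on the mix of libraries. Chosen by this count, they had Slc22a3 at 171 CPM against 95.4 CPM in the other VSMC-like cells, and Airn at 32.9 against 23.8 CPM, whereas Igf2r was at 104 against 120 CPM and Myh11 at 2452 against 2463 CPM. These levels are sums over libraries, and the 107 cells came mostly from libraries 1, 5 and 6, which had the highest Slc22a3 levels. The cells also had a median depth of 8699 UMIs against 7200, and 39.3% of them against 24.6% of the others were in the subcluster led by Tceal6, Tes and Npr1. The part of library, depth and subcluster in these levels was not tested.

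Slc22a3 had a higher level but a more even spread, with 2189 cells at 1 UMI, 994 at 2, 428 at 3 and 389 at 4 or more, up to 11. Airn was at 1 UMI in 1288 of the 1535 VSMC-like cells in which it was found, and never above 4. After thinning to 3000 UMIs per cell, the variance over the mean of UMIs per cell was 2.43 for Slc22a2, 1.33 for Slc22a3 and 1.05 for Airn, beside a median of 1.02 for 7675 genes. Slc22a2 lay above 98.0% of those genes, Slc22a3 above 93.8% and Airn above 74.3%. The value of Slc22a2 ranged from 1.47 in library 3 to 3.36 in library 5, and that of Slc22a3 only from 1.23 to 1.39.

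**Figure D3:**
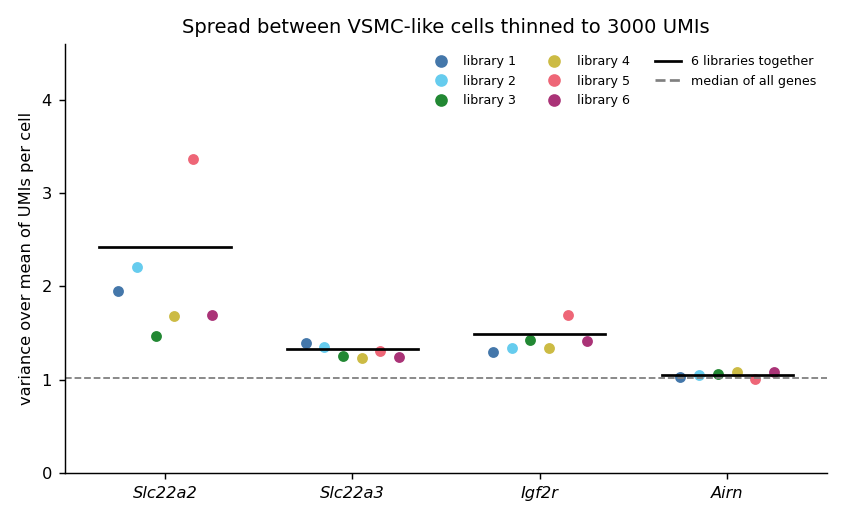
Variance over mean of UMIs per VSMC-like cell after thinning to 3000 UMIs, with 1 point per library, a bar for the 6 libraries together and a dashed line at the median of all genes, 1.02. Slc22a2 had values of 1.47 to 3.36, whereas Airn was near the dashed line.

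Cells with both transcripts were counted within each library at 3000 UMIs per cell, beside the number expected if the genes were detected independently in that library. Slc22a2 and Slc22a3 were found together in 176 cells where 131 were expected, a ratio of 1.34, averaged over draws of 3000 UMIs. The ratio was 1.25, 1.54, 1.19, 1.63, 1.37 and 1.24 in libraries 1 to 6, above 1 in each. Slc22a3 ranked 130 among 10325 genes compared with Slc22a2 in this way, whose median ratio was 1.01 with 90% of them between 0.798 and 1.21. Slc22a2 ranked 62 among 12101 genes compared with Slc22a3.

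The ratio of the transporters stood at 1.29 within VSMC1-like cells (144 observed, 112 expected) and at 1.59 within VSMC2-like cells (26.2 observed, 16.5 expected), and it was above 1 in all 6 libraries in both.

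Airn was found with Slc22a3 in 160 cells where 145 were expected, a ratio of 1.10 that ranged from 1.03 to 1.23 and was above 1 in all 6 libraries. Its ratio with Slc22a2 was 1.22, from 0.925 in library 4 to 1.35 in library 6, and rested on 46.5 observed cells. Its ratio with Igf2r, opposite which it is transcribed, was 1.09 and above 1 in all 6 libraries. Among 10519 genes compared with Airn, 96.5% lay below Slc22a2, 85.0% below Slc22a3 and 82.2% below Igf2r. Within VSMC2-like cells the ratio of Airn with Slc22a2 was 0.807, on 3.31 observed and 4.10 expected cells, too few for a reading.

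Both transporters were found with the VSMC1 marker Tes more often than expected (ratio 1.36 for Slc22a2 and 1.23 for Slc22a3, above 1 in all 6 libraries). They were found with Gata4, which encodes a transcription factor and was higher in VSMC2-like cells (median log2 ratio 1.7), less often than expected (0.575 and 0.719, below 1 in all 6). Within VSMC1-like cells the ratio with Gata4 was 0.532 for Slc22a2, above 1 in 1 library, and 0.681 for Slc22a3, above 1 in none. Within VSMC2-like cells it was 0.793 for Slc22a2, above 1 in 3 of 6 libraries and on 6.61 observed cells, and 0.838 for Slc22a3, above 1 in 1 library. Slc22a3 was also found with Enpep, a VSMC2 marker, more often than expected, with a ratio of 1.23 in VSMC-like cells that was above 1 in all 6 libraries, and of 1.26 within VSMC2-like cells. For Slc22a2 with Enpep the ratio was 1.15 in VSMC-like cells and above 1 in 4 of 6 libraries, with 0.606 in library 3 and 0.781 in library 4. Most genes compared with Slc22a2 lay between 0.798 and 1.21, as given above, and its ratio with Enpep was inside these limits. For Slc22a3 the same limits were 0.8225 and 1.135. The other ratios with Tes, Gata4 and Enpep in all VSMC-like cells lay outside the limits of their transporter. The ranks of these pairs are not given, nor is the share of all genes on 1 side of 1 in every library. With Myh11, which nearly every VSMC-like cell holds, the ratios were 1.01 for both transporters.

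**Figure D4:**
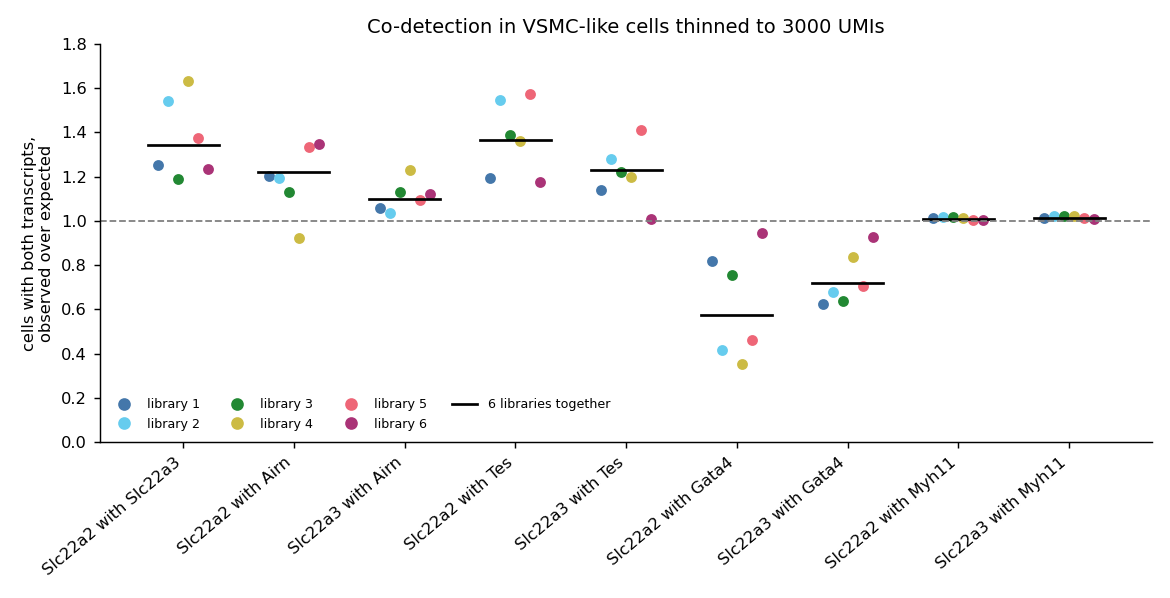
Cells with both transcripts of a pair, observed over expected, in VSMC-like cells thinned to 3000 UMIs, with 1 point per library, a bar for the 6 libraries together and a dashed line at 1. All 6 points of Slc22a2 with Slc22a3 were above 1 (1.19 to 1.63), and all 6 points of either transporter with Gata4 were below 1.

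The other genes of the locus differed in direction between the cell types. Igf2r was at a median of 116 CPM in VSMC-like and 91.7 CPM in fibroblast-like cells, with a median log2 ratio of 0.40 that was near 0 in libraries 3 and 4 (0.04 and 0.01). On the far side of Slc22a3, Map3k4 had a ratio of 0.42 and Agpat4 one of -1.18. Of 13 neighbours described, 9 had at least 10 CPM in either cell type, with a median of 0.42 beside -0.03 for all genes. Of these, 6 were higher in VSMC-like cells in all 6 libraries and 3 lower, beside 34.2% and 38.2% of all genes.

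The 6 were Igf2r, Map3k4, Tcp1 (0.93), Mrpl18 (0.53), Sod2 (0.52) and Acat2 (0.50), and the 3 were Agpat4, Qk (-0.41) and Wtap (-0.41). Pnldc1, at 8.43 CPM in VSMC-like and 0.949 CPM in fibroblast-like cells, was under that level, as were Park2, Mas1 and Plg. Between VSMC2-like and VSMC1-like cells, 1 of the 9 neighbours was higher in all 6 libraries (Igf2r) and none lower, beside 12.2% and 23.3% of all genes. The other 8 were mixed, and the median of the 9 was 0.14. Those 8 had medians of 0.49 (Agpat4), 0.19 (Mrpl18), 0.15 (Wtap), 0.14 (Acat2), 0.05 (Sod2), 0.04 (Tcp1), -0.05 (Qk) and -0.25 (Map3k4).

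**Figure D5:**
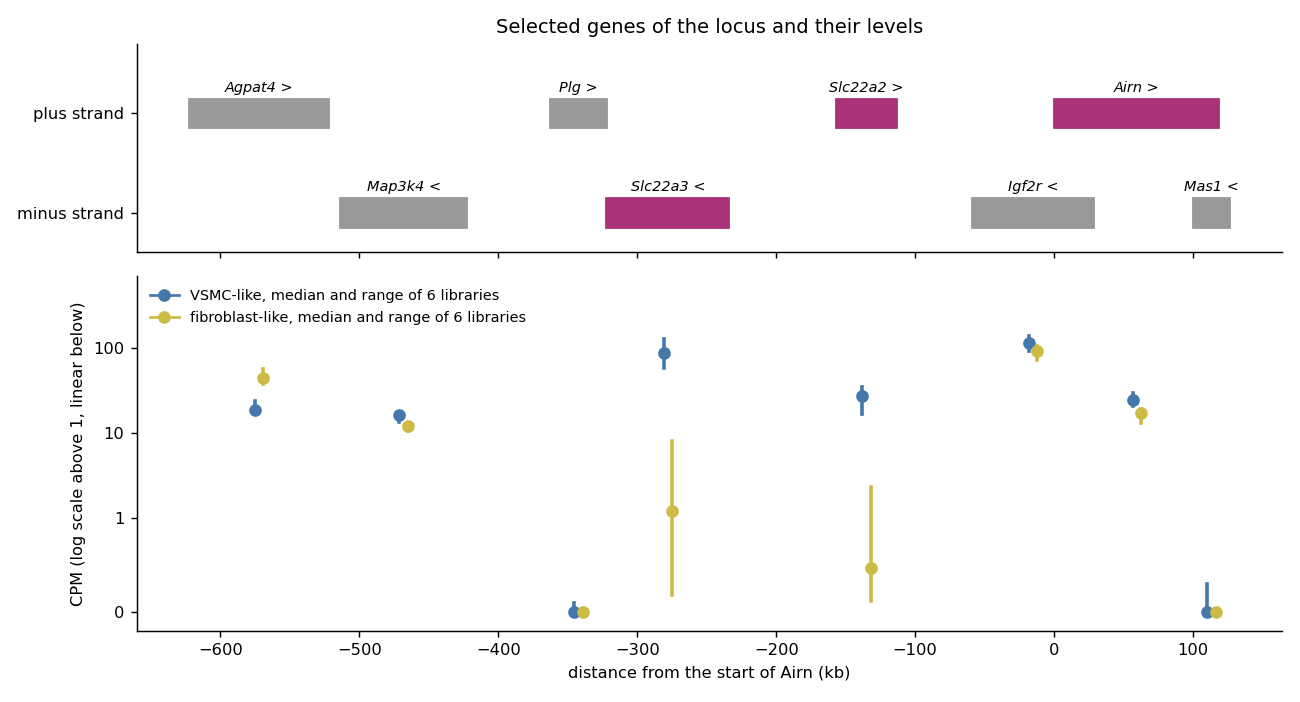
Selected genes around Slc22a2, Slc22a3 and Airn by distance from the start of Airn in kb, with the strand above (the 3 genes in purple) and, below, the level of each gene in VSMC-like (blue) and fibroblast-like cells (yellow) as the median and range of 6 libraries in CPM (log axis above 1, linear below). Slc22a2 and Slc22a3 differed between the cell types by median log2 ratios of 5.87 and 5.92, and Igf2r and Airn by 0.40 and 0.60.

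Of 13 other transporters of cations and monoamines described, 1 had at least 10 CPM in either cell type, Slc22a5, the carnitine transporter OCTN2. It was lower in VSMC-like cells in all 6 libraries, with a median log2 ratio of -0.85. Slc29a4, which encodes the monoamine transporter PMAT, had 3 UMIs in all cells, and the neuronal transporters Slc6a2, Slc6a3 and Slc6a4 had at most 0.512 CPM in VSMC-like cells.

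Of 11 genes of amine breakdown and synthesis described, 5 passed 10 CPM in either cell type, with a median of 0.10. In all 6 libraries 2 were higher in VSMC-like cells and 1 lower, beside 34.2% and 38.2% of all genes, and 2 were mixed. The higher ones were Aoc3 (3.33), an amine oxidase of the smooth muscle cell surface, and Maoa (0.86), which oxidizes monoamines, and Maob was the lower one (-0.71). Between VSMC2-like and VSMC1-like cells none of the 5 was higher in all 6 libraries, beside 12.2% of all genes. The 1 that was lower, beside 23.3% of all genes, was Hnmt, which methylates histamine (-1.03). The 2 largest medians were those of Aoc3 (0.22) and Sult1a1 (0.15), the smallest after Hnmt that of Maoa (-0.41), and the list median was -0.34 beside -0.07 for all genes. The synthesis genes Th, Ddc, Dbh, Hdc and Tph1 were at 0.630 CPM or less in VSMC-like cells.

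Of 15 amine receptors described, 1 had at least 10 CPM in either cell type. This was Htr1b, a serotonin receptor, which was at 27.2 CPM in VSMC-like cells with a log2 ratio of 5.96 over fibroblast-like cells, close to both transporters, and was lower in VSMC2-like than in VSMC1-like cells in all 6 libraries (-1.87).

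Of 32 imprinted genes of other loci in the files, 12 passed 10 CPM in either cell type, of which 2 were higher in VSMC-like cells in all 6 libraries, 8 lower and 2 mixed, with a median of -0.95, beside 34.2% higher and 38.2% lower among all genes. Snrpn (0.49) and Gnas (0.28) were the higher ones. The largest differences were those of Mest (-4.67), Meg3 (-2.48) and Ndn (-2.09). Between VSMC2-like and VSMC1-like cells, Ndn was higher (0.92) and Peg3 (-0.50) and Gnas (-0.16) lower in all 6 libraries among 11 genes. Among all genes 12.2% were higher and 23.3% lower, and the list median was -0.03. The next largest median was that of Grb10 (0.34) and the next smallest that of Cdkn1c (-0.32).

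Across 30 points, the 5 cell types in each of the 6 libraries, the gene most like Slc22a2 among 10253 was Slc22a3, with a Pearson correlation of log2(CPM + 5) of 0.96, followed by Xirp1, Sgca and Fxyd7 (0.95 each) and Rock1 (0.94). For Slc22a3 the leading genes were Cdh6, Susd5, Itga7 and Myocd (0.98 each) and Xirp1 (0.97), and Slc22a2 ranked 18. For Airn they were Pik3ip1 (0.94), Eml1, Ntan1 and Zfp672 (0.91 each) and Arhgef12 (0.90). Igf2r ranked 197 for Airn, at 0.80, while Slc22a2 and Slc22a3 were at 0.46 and 0.52. Over the 12 points of VSMC1-like and VSMC2-like cells alone this order was turned round, with Airn at -0.32 with Igf2r, 0.41 with Slc22a2 and 0.29 with Slc22a3. Over the same 12 points Slc22a2 with Slc22a3 was at 0.73 in place of 0.96, and Slc22a3 with Igf2r was at 0.73 as well. The points share libraries and depths, 1 of the 30 rests on 3 endothelial-like cells in library 6, and the values are given as a description.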

How the data were processed

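The authors deposited whole UMI counts of the 6 samples as 1 matrix, made with the 10x Genomics 3′ v3 kit. Alignment to mm10 and aggregation used Cell Ranger, as version 6 in the submitters' processing notes, whereas the header of the matrix names an earlier version. Whether intronic reads were counted, whether the strand was used and whether depth was equalized is not given in the sources used here. The members and gene lists were chosen with earlier results of these data known. Cells were filtered as in the study's methods and clustered in Seurat 5.3.0 (sctransform 0.4.2, R 4.3.3) after SCTransform on 3000 variable genes and RPCA integration over 30 components, at a resolution of 0.25 for cell types, 0.05 for VSMC subclusters and 0.5 for fine subclusters. Genes of all lists were left out of the clustering, and 346 genes (175 of them variable) were barred from the VSMC clustering, a list that was enlarged after a first clustering divided cells by stress genes. A cluster was named when at least 3 markers were found in at least 10% of its cells at 1.5 times the median cluster. Small groups of 55 glia-like and 17 cardiomyocyte-like cells were taken out after they were seen.

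UMIs were summed per cell type and library. Log2 ratios added 0.5 UMI scaled to the totals. Genes at 10 CPM or more were counted by direction over libraries. No test was made and no p-value is given, since a library whose genotype is unknown is no replicate of a condition. Thinning to 3000 UMIs was computed exactly as the average over draws without replacement. Named genes are the 3 members, every locus neighbour, the 2 largest and 2 smallest VSMC2-like over VSMC1-like ratios of each list and the 5 genes most like each member, and others were chosen after their values were seen. A few genes of the lists are not reported here and stay out of the counts and medians. Intervals are exact binomial at 95% and cover counting error only, and the limit given for a count of 0 is 3 counts. Doublets were marked with scrublet in scanpy 1.11.5 and kept, apart from 1 alternative. Where scrublet called very few cells, in libraries 2 and 5, the highest 5% of scores were marked instead of its calls. The statistics were run on simulated counts, whose outcome is not given here. The check of co-detection at 3000 UMIs covered only simulated rates above those of Slc22a2 and Airn in VSMC-like cells, with a constant rate per gene. Promoters are from RefSeq (3 of 3 matched). Proteins are not printed here. Of the alternatives tried, edgeR 4.0.16 gave the TMM scaling.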

Additional observations from a re-analysis of the deposited data

Results flagged for a closer look

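Barcodes that the cell filter left out also held transcripts of the 3 genes. Among 5744 such barcodes, most of which had too few genes or UMIs, Slc22a3 had 253 UMIs (30.1 CPM), Slc22a2 had 56 (6.66 CPM) and Airn had 139 (16.5 CPM). Myh11 was at 797 CPM in the same barcodes. In the 5627 barcodes with too few genes or UMIs, Slc22a3 was found in 3.31% and Airn in 1.48%. No report value uses these barcodes. Outlying libraries were not sought, because the libraries have no group.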

How the results depend on the processing

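No paired analysis was possible because the matrix ties no library to a labelled sample or replicate number, and so to a genotype, whereas cell types were compared within each library. Of the log2 ratios, co-detection ratios and gene counts of the design, those of Slc22a3 between VSMC subclusters turned sign. Its median of -0.15 became 0.19 with log-normalized counts clustered without integration and 0.02 without libraries 1 and 5, and the cause was not tested. The ratio of Airn moved from -0.44 to -0.14 under the former alternative. That alternative changed normalization and integration together and took its VSMC subclusters from a clustering of all cells. Without a filter on low counts, 10095 genes in place of 6311 had 1 direction in all 6 libraries between VSMC-like and fibroblast-like cells. Every other alternative kept the direction. Leaving out each library in turn gave log2 ratios over fibroblast-like cells of 5.74 to 6.0 for Slc22a2, 5.88 to 5.95 for Slc22a3 and 0.60 for Airn, and co-detection ratios of 1.32 to 1.37 for Slc22a2 with Slc22a3, 1.17 to 1.26 for Slc22a2 with Airn and 1.09 to 1.12 for Slc22a3 with Airn. The alternatives without libraries 1 and 5, and with the Rgs5 and Foxf1 cluster counted as VSMC-like, were chosen after seeing the data. Depth limits all 3 genes, each of which was at 1 UMI in most VSMC-like cells that held it.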
